A study of Rattus norvegicus with 9 samples.

Results

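The genes described here were 8 aquaporins of rat liver, Aqp1, Aqp3, Aqp4, Aqp5, Aqp7, Aqp8, Aqp9 and Aqp11, taken by symbol from a table of 32883 genes. The table held 12 genes of this family, and the 4 others were counted for completeness. Each library came from the liver mRNA of 1 male Sprague-Dawley rat, and the 9 libraries covered 3 normal control rats (N1, N12 and N3), 3 DEN model rats (M13, M17 and M24) and 3 PZH administration rats (G27, G28 and G42). The DEN model and PZH administration rats alike were given 0.01% diethylnitrosamine (DEN), a liver carcinogen, by weekly injection into the abdomen, and only the PZH administration rats received Pien-Tze-Huang (PZH), a traditional Chinese formula. The normal control rats were kept on normal diet. The treatment tag of the M rats reads PZH, and they were taken as the DEN model group from the letter of their titles and from the methods, which list 3 rats in each of these groups. Age, PZH dose and week of killing are not given for the sequenced rats, so weeks may differ within a group, and a DEN liver here may hold fibrotic tissue as well as tumor.

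Aquaporins are membrane channels that let water cross the cell membrane along an osmotic gradient, and the aquaglyceroporins among them (Aqp3, Aqp7 and Aqp9) also carry glycerol and other small uncharged solutes. In liver, water channels of hepatocytes and of the bile duct epithelium take part in bile formation, and Aqp9 brings glycerol released by adipose tissue into the hepatocyte for gluconeogenesis and lipid synthesis. Aqp4 is best known from brain astrocytes, Aqp5 from the apical membrane of salivary, lacrimal and airway glands, and Aqp11 is an intracellular member found in the endoplasmic reticulum. The comparisons asked how this set of channels differed between normal and DEN livers, and whether livers of rats that were also given PZH differed from DEN livers.

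Total counts per rat were between 14922973 and 27161496, and the deepest library was G27. The scaling factors of edgeR (TMM, trimmed mean of M values) were 0.731 to 0.799 in normal control, 1.21 to 1.58 in DEN model and 0.863 to 0.941 in PZH administration rats, so that scaling by library totals alone moved the median log2 fold change of all tested genes from 0.03 to 0.89 between DEN model and normal control and from 0.01 to -0.67 between PZH administration and DEN model. Levels are therefore given as counts scaled to library size with TMM (CPM), and 3 counts in a library correspond to 0.125 to 0.252 CPM. For the aquaporins, a call that changes with library totals is named beside the gene. The pathway lists are given counts of calls with library totals. Single genes of the lists, the cell type markers and the neighbours of members are given with TMM scaling only. The liver label was met in every rat, since none of the 7 hepatocyte markers (Alb, Ttr, Apoa1, Cps1, Tat, Asgr1 and Cyp2e1) was at 0, and their summed level was 112698 to 120809 CPM in normal control, 17386 to 39887 CPM in DEN model and 84240 to 117660 CPM in PZH administration rats. M17 held the highest sum of the DEN model rats and the TMM factor nearest to the other groups (1.21). Measurements were made on whole tissue, where fewer cells of a type and less RNA per cell cannot be told apart.

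In normal liver the family was dominated by Aqp9 and Aqp8. By deposited FPKM, which divides counts by transcript length and library total and is the scale used here wherever levels of different genes are compared, Aqp9 averaged 88.7 and Aqp8 47.7, followed by Aqp11 at 10.5, Aqp1 at 4.26 and Aqp5 at 0.476, and each of these was separated from the next by a gap between the lowest and highest rats (n = 3). Aqp4, Aqp3 and Aqp7 stood at the bottom with overlapping values, and Aqp7 had no read in any of the 3 normal control rats. In DEN model livers Aqp8 (mean 60.8 FPKM) and Aqp9 (54.1) overlapped, Aqp1 came next at 23.0, and Aqp5 (9.68), Aqp7 (7.53), Aqp11 (7.46), Aqp3 (3.72) and Aqp4 (1.61) followed, each overlapping its neighbour. In PZH administration livers Aqp8 (68.2) and Aqp9 (63.2) again overlapped, as did Aqp1 (18.1) and Aqp11 (9.45), Aqp7 (1.92) and Aqp5 (1.90), and Aqp4 (0.442) and Aqp3 (0.186). Thus Aqp9 led in normal liver, and no single member stood above all others in either group of DEN-treated rats.

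**Figure D1:**
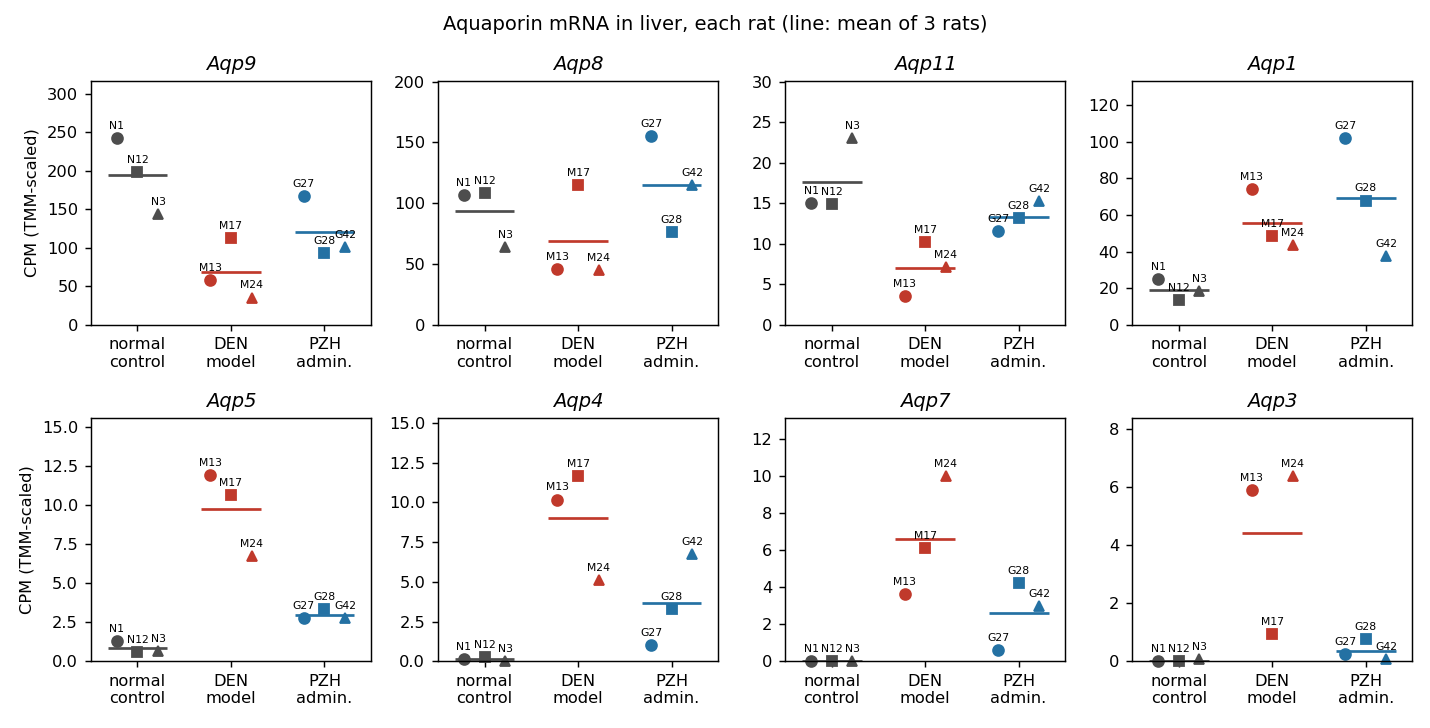
TMM-scaled CPM (vertical axes from 0, a separate scale for each gene) of the 8 aquaporins in each of the 9 rats, with rats as labelled points and the mean of 3 rats as a line. Aqp9 was 143 to 243 CPM in the normal control rats and 35.3 to 113 CPM in the DEN model rats, whereas Aqp7 had no counts in normal control rats and reached 3.65 to 10.002 CPM in the DEN model rats.

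Relative to normal control, the DEN model livers held less mRNA of the hepatocyte glycerol channel Aqp9 and of Aqp11, and more of Aqp1, Aqp3, Aqp4, Aqp5 and Aqp7. All 8 members passed the filter on low counts, and 7 were called at an adjusted p under 0.05 by edgeR's quasi-likelihood test, 5 higher and 2 lower. Calls were common in this comparison: of 14255 genes tested, 45.8% were called, 25.3% higher and 20.5% lower. Aqp3, Aqp4, Aqp5 and Aqp7 passed the filter through their counts in DEN model rats. The counts of members called, here and at the study's thresholds, and the members' median are therefore descriptions. The members' median was 2.54 on the log2 scale, beside 0.03 over all genes tested. At the study's thresholds (log2 fold change beyond 2 in size, unadjusted P under 0.001), 4 members passed (Aqp3, Aqp4, Aqp5 and Aqp7), beside 12.3% of all genes tested.

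Aqp9 lies on chromosome 8 from 77559624 to 77599781, in the coordinates of the deposited table, whose genome build is not given in the sources used here. Its level was 243, 199 and 143 CPM in N1, N12 and N3, 57.6, 113 and 35.3 CPM in M13, M17 and M24, and 167, 93.1 and 101 CPM in G27, G28 and G42. In CPM all 3 DEN model rats lay below all 3 normal control rats, and M17 was the highest of them. By FPKM, which uses library totals, the groups overlapped (79.9 in M17 and 61.1 in N3). The mean of the 3 rats fell from 194.9 ± 49.8 CPM (SD) in the controls to 68.6 ± 39.9 CPM in DEN model rats, a log2 fold change of -1.48 (SE 0.40) with an adjusted p of 0.0165 by edgeR. This call was lost with library totals (log2 fold change -0.71, adjusted p 0.0879) and without M13 (0.0589) or N1 (0.0598), within a range of 0.000826 to 0.0879 over the alternatives run in edgeR and DESeq2. PZH administration rats averaged 120.2 ± 40.4 CPM and overlapped the DEN model group, with a log2 fold change of 0.84 (SE 0.42) against it and an adjusted p of 0.20 in edgeR. Without M17 the same difference was 1.38 with an adjusted p of 0.0269, in a range of 0.0269 to 0.595 over the alternatives.

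Aqp8 (chromosome 1 from 193424812 to 193430676), a water channel of the canalicular membrane and of intracellular vesicles of hepatocytes, was 107, 109 and 64.3 CPM in N1, N12 and N3, 45.8, 115 and 44.7 CPM in M13, M17 and M24, and 155, 76.5 and 115 CPM in G27, G28 and G42. The groups overlapped, because in CPM M17 was as high as the normal control rats while M13 and M24 were below every other rat. By FPKM, N3 was the lowest rat (30.8, beside 44.7 in M13). The log2 fold change between DEN model and normal control was -0.42 (SE 0.39) with an adjusted p of 0.40 by edgeR, and with library totals its sign turned (0.35, adjusted p 0.364). Without M17 the difference was -1.02 and was called (adjusted p 0.0107 in edgeR), in a range of 0.0107 to 0.761 over the alternatives. PZH administration rats stood 0.78 (SE 0.42) above the DEN model group on the log2 scale with an adjusted p of 0.23 in edgeR, and without M17 this was 1.36 with an adjusted p of 0.0199, in a range of 0.0199 to 0.696. In PZH administration rats the values against normal control were 0.32 for Aqp8 (adjusted p 0.63 in edgeR), -0.68 for Aqp9 (0.23) and -0.41 for Aqp11 (0.47), and without G27 that of Aqp9 was -1.005 and called (0.0337, range 0.0337 to 0.620).

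Aqp11 (chromosome 1 from 162703442 to 162713610) was 15.0, 14.9 and 23.1 CPM in N1, N12 and N3, 3.52, 10.2 and 7.10 CPM in M13, M17 and M24, and 11.6, 13.2 and 15.2 CPM in G27, G28 and G42. In CPM the DEN model rats overlapped neither of the other groups. By FPKM, which uses library totals, they overlapped both. M17 (9.63) was above N12 (9.20), and M24 (8.68) was above G27 (7.73). The mean fell from 17.6 ± 4.70 to 6.95 ± 3.36 CPM, a log2 fold change of -1.33 (SE 0.38, adjusted p 0.0208 in edgeR), and this call was lost with library totals (-0.49, adjusted p 0.234), without M24 (0.0518) and without N3 (0.0712), in a range of 0.00373 to 0.234 over the alternatives. In PZH administration rats the mean was 13.3 ± 1.84 CPM, and the difference from the DEN model group was 0.96 (SE 0.36) with an adjusted p of 0.10 in edgeR. Without M17 it was 1.33 and called at an adjusted p of 0.0341, in a range of 0.0341 to 0.430.

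Aqp1 (chromosome 4 from 85551502 to 85569360), the water channel of red cells, of vascular endothelium and of bile duct epithelium, was 24.8, 13.7 and 18.3 CPM in N1, N12 and N3, 74.0, 48.5 and 43.6 CPM in M13, M17 and M24, and 102, 68.0 and 37.7 CPM in G27, G28 and G42. Every rat given DEN, with or without PZH, was above every normal control rat. The mean rose from 18.9 ± 5.61 to 55.4 ± 16.3 CPM between normal control and DEN model, a log2 fold change of 1.57 (SE 0.27, adjusted p 0.00232 in edgeR), and its adjusted p stayed under 0.05 in every alternative fit, although it did not pass the study's thresholds. With PZH the mean was 69.3 ± 32.3 CPM, 1.88 (SE 0.37) above normal control on the log2 scale with an adjusted p of 0.0220 in edgeR. That call was lost without any 1 of N1, N12, N3 or G28 (adjusted p 0.0632 to 0.0832), and the range over the alternatives was 3.05e-05 to 0.0832. Set against DEN model rats, PZH administration rats had a log2 fold change of 0.35 (SE 0.37, adjusted p 0.53 in edgeR), and its sign turned with library totals (-0.35) and without G27 (-0.05).

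Aqp5 (chromosome 7 from 141249044 to 141252578) was the member with the most even rise and fall. Its level was 1.33, 0.610 and 0.671 CPM in N1, N12 and N3, 11.9, 10.6 and 6.76 CPM in M13, M17 and M24, and 2.77, 3.34 and 2.78 CPM in G27, G28 and G42. No 2 groups overlapped, and the PZH administration rats lay between the others. The rise in the DEN model was 3.50 (SE 0.40) on the log2 scale with an adjusted p of 0.000384 in edgeR, on 33 counts in the 3 normal control libraries and 659 in the DEN model libraries. Relative to the DEN model group, Aqp5 was lower in PZH administration rats by a log2 fold change of -1.70 (SE 0.29, adjusted p 0.0125 in edgeR). Of the alternative fits, the one without M13 lost that call (adjusted p 0.0592, range 1.5e-05 to 0.0592), and Aqp5 did not pass the study's thresholds here. Against normal control, the PZH administration rats stood 1.77 (SE 0.43) higher with an adjusted p of 0.0520 in edgeR, which passed the threshold with DESeq2 (0.0116), with library totals (0.0335) and in a single fit of all 3 groups (0.0207), in a range of 0.0116 to 0.213.

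Aqp3 (chromosome 5 from 57423734 to 57429245), a glycerol and water channel of the basolateral membrane of many epithelia, had 0, 0 and 1 counts in N1, N12 and N3, 139, 19 and 154 counts in M13, M17 and M24, and 6, 11 and 1 counts in G27, G28 and G42. In CPM the DEN model rats were 5.90, 0.940 and 6.39 and the PZH administration rats 0.256, 0.765 and 0.0712. M13 and M24 carried most of these reads, and M17 was only just above G28. The ratio of DEN model to normal control was 174, with a 95% counting interval of 31.0 to 6892 that covers counting error only, and edgeR's adjusted p was 0.00185. In PZH administration rats Aqp3 was lower than in the DEN model by a log2 fold change of -3.59 (SE 0.89, adjusted p 0.0293 in edgeR). It passed the filter on low counts through its counts in the DEN model rats. The call was lost without G27 (0.0844), G42 (0.0775), M13 (0.0975) or M24 (0.0885), in a range of 0.000221 to 0.0975. Aqp3 was not past the filter between PZH administration and normal control, where 18 counts stood against 1 (ratio 13.1, interval 2.07 to 547) and a single fit of all 3 groups gave an adjusted p of 0.233 in edgeR.

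Aqp4 (chromosome 18 from 6765945 to 6782996) had 2, 4 and 0 counts in N1, N12 and N3, and was 10.2, 11.7 and 5.15 CPM in M13, M17 and M24 and 1.02, 3.27 and 6.76 CPM in G27, G28 and G42. All rats given DEN were above the normal control rats, and among the PZH administration rats only G42 reached the range of the DEN model. The log2 fold change between DEN model and normal control was 5.79 (SE 0.66, adjusted p 0.000391 in edgeR), against a normal control level that rests on 6 reads in all. For PZH administration against normal control it was 4.48 (SE 0.94, adjusted p 0.0297 in edgeR), lost without any 1 of N1, N12, N3, G28 or G42 (range 5.12e-05 to 0.115). Against the DEN model, PZH administration rats were -1.30 (SE 0.60) on the log2 scale, adjusted p 0.17 in edgeR, and library totals brought this to -1.89 and under the threshold (0.0300, range 0.0300 to 0.339).

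Aqp7 (chromosome 5 from 57358327 to 57372239), the glycerol channel through which adipocytes release glycerol, had no reads in N1, N12 and N3, and 86, 123 and 241 counts in M13, M17 and M24. These correspond to 3.65, 6.09 and 10.002 CPM, and the PZH administration rats G27, G28 and G42 had 0.640, 4.24 and 2.99 CPM. Aqp7 was thus read in all 6 rats given DEN and in none of the normal control rats. Against a floor of 3 counts per normal control library, the DEN model mean was at least 27.6-fold higher (edgeR adjusted p 0.000681) and the PZH administration mean at least 11.015-fold higher. The latter pair was not past the filter, and a single fit of all 3 groups gave an adjusted p of 0.0130 in edgeR. Relative to the DEN model, the log2 fold change with PZH was -1.34 (SE 0.63, adjusted p 0.17 in edgeR) with overlapping groups, and library totals brought it to -2.00 (0.0349, range 0.0349 to 0.453).

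**Figure D2:**
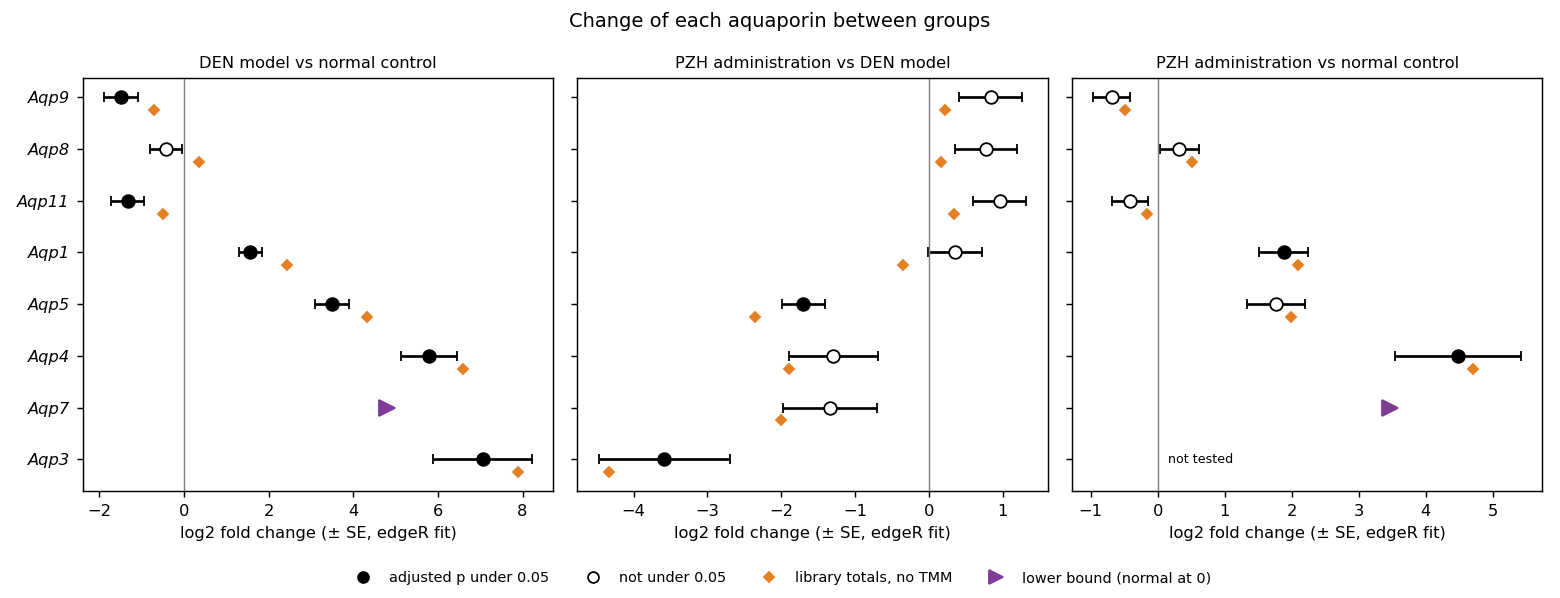
Log2 fold change of each aquaporin (horizontal axis, circles, ± SE, TMM scaling, 3 rats a group) in the 3 comparisons, filled where edgeR's adjusted p was under 0.05. Diamonds give the same values scaled by library totals, under which Aqp8 turned from -0.42 to 0.35 between DEN model and normal control and Aqp1 from 0.35 to -0.35 between PZH administration and DEN model, and triangles mark the lower bound of Aqp7, which had no reads in normal control rats. The values of Aqp3 and Aqp4 against normal control rest on 1 and 6 control reads.

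In the comparison of PZH administration with DEN model, all 8 members were tested and 2 were called, Aqp3 and Aqp5, both lower. Of 14272 genes tested, 19.1% were called, 8.72% higher and 10.3% lower, and the members' count is a description, since Aqp3 passed the filter through its DEN model counts. The members' median was -0.47 on the log2 scale, beside 0.01 over all genes. The 4 members with a positive value (Aqp1, Aqp8, Aqp9 and Aqp11) did not pass the threshold, and neither did Aqp4 and Aqp7. None passed the thresholds of the study, which 2.43% of genes did. Against normal control, 6 of the 8 members were tested in PZH administration rats and 2 were called higher (Aqp1 and Aqp4), beside 5.21% of 13348 genes called, 4.07% higher and 1.15% lower, and none passed the thresholds of the study, which 2.32% of genes did. Aqp4 passed the filter there through its counts in PZH administration rats, as did Aqp5, so that this count too is a description. These comparisons share their DEN model or normal control rats, so that their values are not independent of each other.

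The make-up of the family within each liver does not depend on the scaling between libraries, since it is the share of each gene in the summed FPKM of the 8 aquaporins of a rat. These shares were chosen for display after values had been seen and are given without a test. Unlike the shares, the sum itself depends on that scaling, since FPKM uses library totals. It was 152 ± 38.4 FPKM (SD, n = 3) in normal control, 168 ± 42.5 in DEN model and 163 ± 39.3 in PZH administration rats, with overlapping ranges. With FPKM divided by the TMM factor, Aqp9 averaged 114 in normal control and 39.99 in DEN model rats, and Aqp8 61.0 and 44.9. The mean of Aqp11 was also lower there, and those of the other members were higher. The sum was not formed on that scale, so whether it differed between the groups is not settled here. Aqp9 made up 58.1 ± 2.76% of the summed FPKM in normal control, 31.2 ± 6.47% in DEN model and 38.5 ± 2.07% in PZH administration livers, and no normal control rat was as low as any DEN-treated rat. Aqp1 took 2.88 ± 0.828%, 14.5 ± 6.41% and 11.05 ± 3.80% of the sum, in the same order of groups. The 4 members that were scarce in normal liver, Aqp3, Aqp4, Aqp5 and Aqp7, together took 0.231 to 0.412% in normal control, 8.05 to 19.9% in DEN model and 1.14 to 4.64% in PZH administration rats. M17 had the lowest such share of the DEN model rats, and the 3 groups did not overlap.

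**Figure D3:**
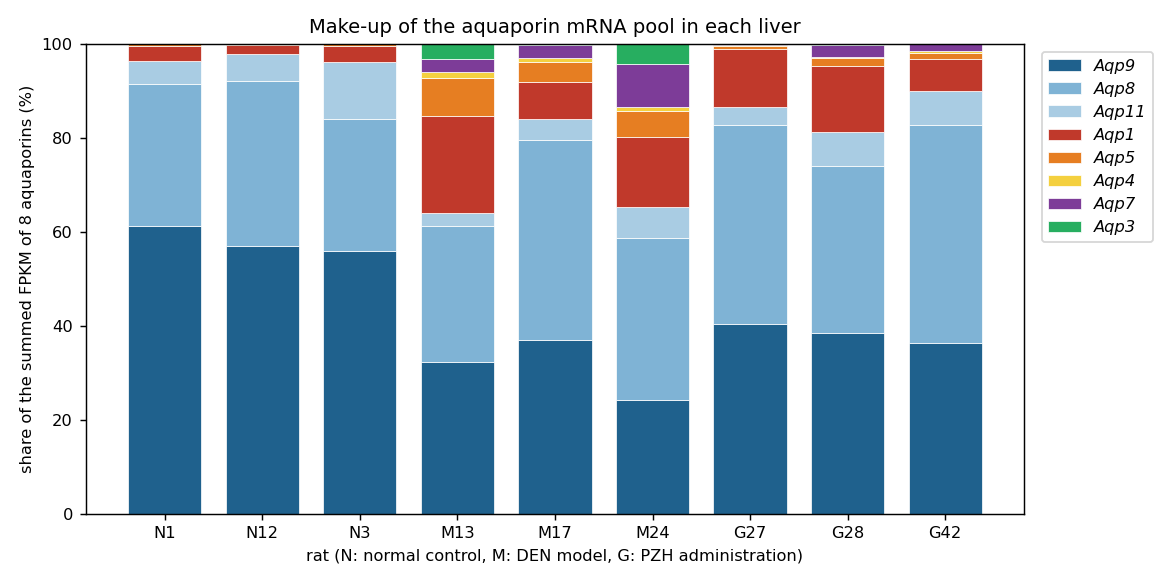
Share of each aquaporin in the summed FPKM of the 8 aquaporins (vertical axis, percent, stacked to 100) in each rat. Aqp9 fills 56.0 to 61.2% of the bar in normal control rats and 24.3 to 40.5% in all rats given DEN, and Aqp3, Aqp4, Aqp5 and Aqp7 together are widest in M13 (15.3%) and M24 (19.9%).

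The ratio of Aqp8 to Aqp9, the pair of abundant hepatocyte channels, was 0.494 to 0.614 in normal control, 0.893 to 1.42 in DEN model and 0.923 to 1.28 in PZH administration rats. The FPKM of Aqp8 was thus below that of Aqp9 in every normal control rat, and the ratio was higher in every rat given DEN. The ratio of Aqp1 to Aqp9 was 0.0342 to 0.0636 in normal control, 0.214 to 0.640 in DEN model and 0.186 to 0.364 in PZH administration rats. PZH administration rats overlapped the DEN model rats in both ratios and the normal control rats in neither.

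The promoters of 4 members are shown because their genes moved in both directions: Aqp1, Aqp3 and Aqp5 rose in DEN model livers and Aqp9, the leading channel of normal liver, fell. Each sequence is the 250 bases before the annotated gene start in RefSeq's rat assembly GRCr8, read 5′ to 3′ on the strand of the gene, at chr4:85812534-85812783 (plus strand) for Aqp1, chr5:61040684-61040933 (minus) for Aqp3, chr7:132601278-132601527 (plus) for Aqp5 and chr8:80718189-80718438 (minus) for Aqp9. The build of the deposited table is not given, so these positions are not to be set against those of the table. Capitals mark matches to the motifs named below the sequences, searched on both strands.
Aqp1: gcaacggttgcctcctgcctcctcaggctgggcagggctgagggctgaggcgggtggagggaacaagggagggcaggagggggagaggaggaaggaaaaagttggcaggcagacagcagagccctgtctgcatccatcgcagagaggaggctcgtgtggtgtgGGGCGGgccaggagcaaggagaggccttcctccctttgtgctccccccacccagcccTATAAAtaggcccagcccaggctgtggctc
Aqp3: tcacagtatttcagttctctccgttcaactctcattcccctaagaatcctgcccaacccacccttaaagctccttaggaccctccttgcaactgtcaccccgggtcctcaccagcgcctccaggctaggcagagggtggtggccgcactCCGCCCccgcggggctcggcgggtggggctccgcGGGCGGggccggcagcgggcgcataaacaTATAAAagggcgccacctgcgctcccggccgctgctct
Aqp5: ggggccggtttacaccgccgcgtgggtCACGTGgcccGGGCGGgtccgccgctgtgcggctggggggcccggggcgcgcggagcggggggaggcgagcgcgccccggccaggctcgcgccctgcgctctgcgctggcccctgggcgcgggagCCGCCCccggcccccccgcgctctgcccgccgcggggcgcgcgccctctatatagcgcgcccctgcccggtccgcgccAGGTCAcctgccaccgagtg
Aqp9: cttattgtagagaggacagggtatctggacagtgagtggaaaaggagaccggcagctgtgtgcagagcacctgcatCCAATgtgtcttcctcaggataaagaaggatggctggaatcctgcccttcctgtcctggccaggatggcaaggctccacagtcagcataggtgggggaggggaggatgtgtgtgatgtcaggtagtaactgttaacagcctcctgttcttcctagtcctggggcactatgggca

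Of the 8 members, 7 have an entry in the RefSeq promoter table, and Aqp7 has none. A TATA box (TATAAA) stood 30 bases before the start of Aqp1 and 38 bases before that of Aqp3, and no other member window held one, while 12.9% of 33469 rat promoter windows of this length did. The GC box (GGGCGG, 30.5% of windows) was found in Aqp1, Aqp3, Aqp4, Aqp5 and Aqp11, and the CCAAT box (CCAAT, 34.0%) in Aqp4 and Aqp9. The 7 members have 8 windows, because Aqp4 has 2. The matches of Aqp4 lie in its window at chr18:6798843-6799092, and that at chr18:6797927-6798176 held none of these motifs. The E-box (CACGTG, 5.59%) matched in Aqp5 and at 2 places in Aqp8, and the nuclear receptor element AGGTCA (14.1%) matched in Aqp5, 20 bases before its start. None of the member windows held the AP-1 letters TGAGTCA (4.05%) or the FOXA letters TGTTTAC (3.21%). The Aqp5 window was 83.2% G and C, beside a median of 51.2% over all windows, 65.2% in both Aqp1 and Aqp3 and 54.0% in Aqp9.

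Aqp3 and Aqp7 are neighbours on chromosome 5, with 51495 bases between the end of Aqp7 and the start of Aqp3, and both had at most 1 read in all normal control rats together. With TMM scaling the protein-coding genes on either side did not share their rise: Nfx1 had a log2 fold change of -0.47 between DEN model and normal control (adjusted p 0.0814 in edgeR), Nol6 0.02 (0.94) and Ube2r2 -0.66 (0.0111). Unscaled, Nol6 had 299 to 477 counts in normal control and 615 to 700 in DEN model rats. M24 was the highest rat for both Aqp3 and Aqp7, and the next rat differed: M17 was the lowest of the DEN model rats for Aqp3 (19 counts) and M13 for Aqp7 (86 counts). Aqp5 lies on chromosome 7 between Aqp2 and Aqp6, which had 1 and 0 reads over all 9 rats. Beyond Aqp6, Racgap1, a regulator of cytokinesis, had 0 to 1 counts in normal control and 30 to 84 in DEN model rats (adjusted p 0.000805 in edgeR), and Asic1, an acid-sensing ion channel, had 0 to 3 and 21 to 54 (0.00383). No member overlaps another gene of the table. The remaining family genes were all but silent: Mip had no read in any rat, and Aqp12a reached 17 counts in M13 and at most 2 in every other rat.

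The genes most like each member were found by Pearson's r of log2(CPM + 1) over the 9 rats, a description over rats that share their groups, and with a pseudocount of 0.1 in place of 1 only 10 of the 24 genes found in this way were kept. Aqp3 was followed most closely by Kcne3, a subunit of epithelial potassium channels (r = 0.999), and also by Sh3rf2 (0.99), both without a read in normal control rats. Aqp1 was followed by Igfbp2, an insulin-like growth factor binding protein (0.95), Tmem98 (0.92) and Atxn7l1 (0.91). Aqp4 was followed by L3mbtl2 (0.99), Egln3, an oxygen-sensing prolyl hydroxylase (0.98), and Thada (0.98), and Aqp5 by Bex4, Dok4 and Arg2, the mitochondrial arginase (0.99 each). Rexo5 (0.99), Tpsb2, a tryptase of mast cells (0.99), and Kntc1, a protein of the kinetochore (0.98), followed Aqp7. Aqp9 was followed by Rbpms2, Scrn2 and Acads, the short-chain acyl-CoA dehydrogenase of fatty acid oxidation (0.98 each), Aqp8 by Man1b1 (0.94) and Tas1r1 (0.92), among others, and Aqp11 by Ampd2, an AMP deaminase (0.98), Tpmt (0.98) and Aadat (0.97).

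Among the members themselves, Aqp4 and Aqp5 were the closest pair over the 9 rats (r = 0.91), followed by Aqp4 and Aqp7 (0.89) and Aqp5 and Aqp7 (0.85). Aqp3 ran opposite to Aqp9 (-0.90) and Aqp11 (-0.89), and r was -0.01 for Aqp1 and Aqp8. These values mix differences between groups with those between rats of a group and carry no test.

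Cell type markers also differed between the groups, and their part in the aquaporin differences was not tested. Counts of calls in the marker and pathway lists stand beside the shares of all tested genes called. These were 45.8% between DEN model and normal control, 19.1% with PZH against DEN model and 5.21% with PZH against normal control. Of 9 cholangiocyte markers, all 9 rose in DEN model livers, among them Krt19 (log2 fold change 7.44), Cftr (7.004) and Krt7, and their summed level was 31.4 to 43.2 CPM in normal control, 289 to 804 CPM in DEN model and 103 to 141 CPM in PZH administration rats. M17 had the lowest sum of the DEN model rats, with Krt19 at 50.9 CPM beside 367 in M13 and 333 in M24, and M17 was also the lowest of the DEN model rats for Aqp3. The other members that rose did not follow this order: M17 was the highest of these rats for Aqp4 (11.7 CPM) and not the lowest for Aqp1, Aqp5 or Aqp7. G27 had the highest Aqp1 of all rats (102 CPM) and the lowest cholangiocyte sum of the PZH administration rats (103 CPM). Krt7 had 0 to 3 counts in normal control and 119 to 1355 in DEN model rats, and 1 or 2 of the 9 markers were at 0 in each normal control rat and none in the others. In PZH administration rats 8 of the 9 were lower than in the DEN model, led by Krt19 (-4.01), Krt7 (-3.49), Spp1 (-2.96) and Muc1 (-2.37), and 7 of 8 tested stayed above normal control, among them Cftr (5.58), Krt7, Muc1 (3.61) and Sox9 (3.45). The 8 fell to 2 without M13 or G42, 3 without M24 and 5 without G27. Of the 7 hepatocyte markers, 5 fell in DEN model livers, among them Ttr (-3.89), Cyp2e1 (-3.61), Tat (-3.33) and Asgr1 (-2.24), and these 4 were higher in PZH administration than in DEN model rats (3.50, 3.15, 2.06 and 1.82), a count that fell to 0 without M13 and 2 without M24. Tat stayed below normal control in PZH administration rats (-1.31).

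Of the red cell markers, 2 of 6 tested rose in the DEN model (Ahsp 3.22 and Slc4a1 1.87), a share below the 45.8% of all tested genes called there. In PZH administration rats 5 of 6 were lower than in DEN model rats, including Alas2 (-2.83), Ahsp (-2.76), Hba-a2 (-2.71) and Slc4a1 (-2.57). Hba-a2 has 2 entries, which are counted apart in these numbers, and both were called here (the other -2.52). Their summed level was 300 to 1092 CPM in normal control, 224 to 2071 CPM in DEN model and 167 to 241 CPM in PZH administration rats. In the DEN model rats the sum ran in the order of Aqp1 (2071, 886 and 224 CPM in M13, M17 and M24), and in G27, which had the highest Aqp1 of all rats, it was 241 CPM. Between PZH administration and normal control, Hba-a2 was the red cell gene called, through 1 of its entries (-2.10, adjusted p 0.0488 in edgeR). The other entry was just past the threshold (-2.17, 0.0502). Vascular endothelial markers summed to 190 to 257 CPM in normal control, 181 to 366 CPM in DEN model and 188 to 256 CPM in PZH administration rats, with Vwf (2.48), Plvap (1.26) and Cdh5 (0.98) higher and Kdr (-1.15) lower in the DEN model. This sum too ran in the order of Aqp1 in the DEN model rats (366, 312 and 181 CPM in M13, M17 and M24). In N1, N12 and N3 (257, 235 and 190 CPM) it did not. G27, G28 and G42 were at 256, 256 and 188 CPM, overlapping normal control, and G42 was lowest for both the sum and Aqp1. Plvap (-1.74) and Vwf (-0.85) were lower in PZH administration than in DEN model rats, and Vwf stayed above normal control (1.60). Fat tissue carries Aqp7, and of the adipocyte markers Lep, Plin1 and Retn had no reads in any rat, Adipoq had 3 to 13 counts in the rats given DEN and 0 in normal control rats, and Cidec fell in the DEN model (-1.64) and Cfd in PZH administration relative to DEN model rats (-1.18). Their sum was 91.9 to 171 CPM in normal control, 45.5 to 81.7 CPM in DEN model and 73.6 to 81.8 CPM in PZH administration rats. It was nearly all Cidec and Cfd. In the same order of groups, Cidec averaged 113, 35.9 and 65.3 CPM and Cfd 19.8, 27.8 and 12.0 CPM, while Adipoq was read only in rats given DEN.

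**Figure D4:**
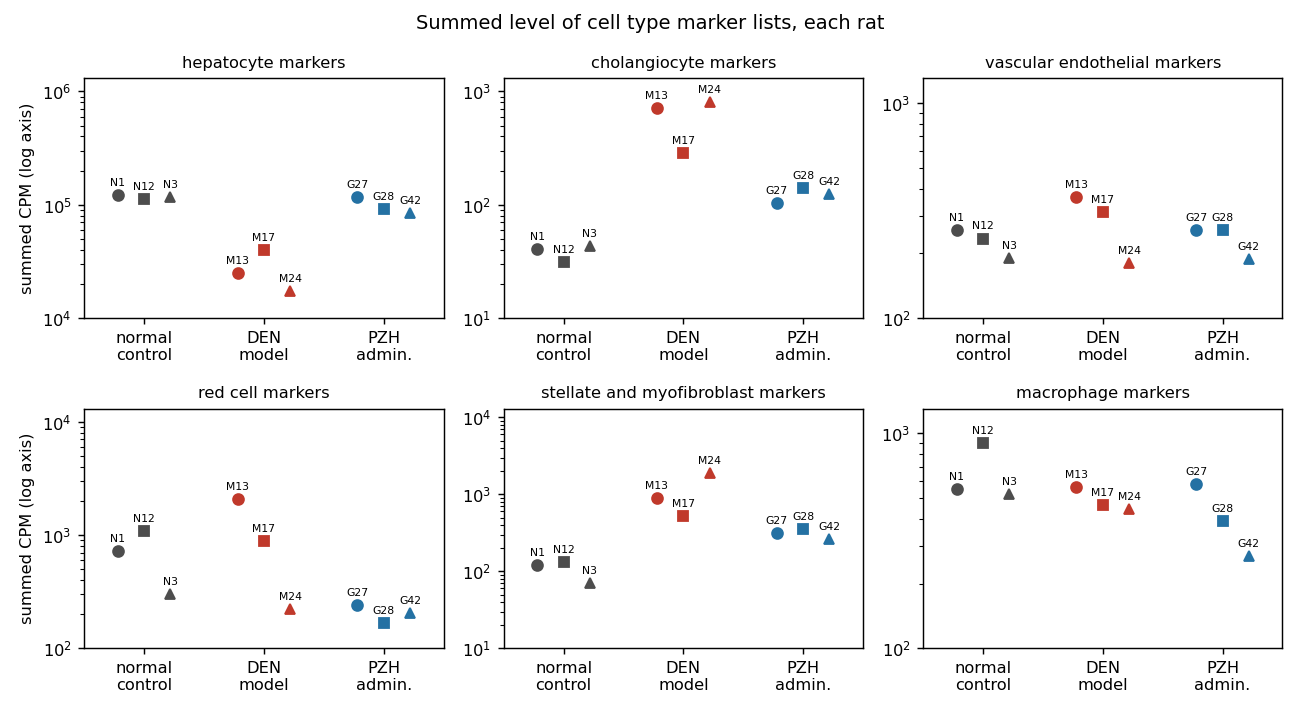
Summed TMM-scaled CPM of 6 marker lists (vertical axes logarithmic, a separate scale for each list) in each of the 9 rats by group. Cholangiocyte markers were 31.4 to 43.2 CPM in normal control, 289 to 804 in DEN model and 103 to 141 in PZH administration rats, and M17 stood nearest to the other groups in the hepatocyte, cholangiocyte and stellate lists.

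Stellate and myofibroblast markers summed to 70.9 to 132 CPM in normal control, 529 to 1917 in DEN model and 265 to 354 in PZH administration rats. In the DEN model 6 of 7 rose, led by Col1a1 (5.40), Acta2 (3.94), Col1a2 (3.16) and Pdgfrb (2.36), and 4 were lower with PZH (Acta2 -3.02, Col1a1 -2.40, Tagln -1.95 and Pdgfrb -1.30), while Col1a1 (2.97), Col1a2 (1.70) and Pdgfrb (1.03) stayed above normal control. Sinusoidal endothelial markers fell in the DEN model in 4 of 6 cases (Clec4g -2.10, Fcgr2b -1.67, Oit3 -0.89 and Lyve1 -0.70) from a sum of 389 to 435 CPM to 148 to 271 CPM, and Clec4g (1.36) and Fcgr2b (1.33) were higher in PZH administration rats, whose sum was 318 to 377 CPM. Of 7 macrophage markers, Marco (-2.72), Clec4f (-1.28) and Cd14 (-0.85) fell in the DEN model, and Csf1r (-0.99), Cd68 (-0.95) and Adgre1 (-0.84) were lower in PZH administration than in DEN model rats, with sums of 522 to 903, 446 to 564 and 270 to 580 CPM in normal control, DEN model and PZH administration. In each comparison the other 3 had positive values that were not called. These were Adgre1 (0.57), Csf1r (0.53) and Cd68 (0.50) in the DEN model. With PZH against the DEN model they were Marco (0.83), Clec4f (0.59) and Cd14 (0.46). Cd163 was not called in either (-0.11 and -0.38). Gut epithelium markers were 192 to 214 CPM in normal control, 20.7 to 482 CPM in DEN model and 30.0 to 121 CPM in PZH administration rats, and Vil1 was the gene called (6.08 in DEN model, -3.16 with PZH). The normal control sum was nearly all Cdh17 (mean 202 CPM), which averaged 98.9 ± 150 CPM (SD) in DEN model rats. Lgals4 went the other way, from no reads to 66.4 ± 86.3 CPM, as did Cdx2, and neither was past the filter. Pancreatic acinar markers stayed at or under 45.2 CPM in every rat, with Cpa1 higher in DEN model than in normal control rats, lower with PZH than in the DEN model (-5.80), and Cela1 below normal control with PZH (-2.18). No other marker of this list was higher in the DEN model. Cela1 averaged 7.98 CPM in normal control and 3.74 CPM in DEN model rats (-1.07, not called). Cela2a was at 0.266 and 0.189 CPM, and Prss1 and Pnlip had no reads in either group.

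Genes of glycerol handling mostly fell with Aqp9 in the DEN model. Of 16 genes tested, 10 were called, 9 lower and 1 higher (median -0.72 on the log2 scale), and with library totals 9 were called, 5 lower and 4 higher. The largest falls were of Lpin1, a phosphatidate phosphatase (-3.44, adjusted p 0.00178 in edgeR), Dgat2, which makes triglyceride (-2.30, 0.000605), and Gpd1, the cytosolic glycerol-3-phosphate dehydrogenase (-2.12, 0.00507), whereas Gpat3, an acyltransferase of glycerol-3-phosphate, rose (1.76, 0.00152). Gk, the kinase that phosphorylates glycerol after its entry, fell from 544 ± 36.4 to 178 ± 20.3 CPM (-1.59, adjusted p 0.000817 in edgeR). Relative to the DEN model, 6 were higher in PZH administration rats and none lower, including Lpin1 (2.36), Dgat2 (1.77), Gk (1.44) and Tkfc, the dihydroxyacetone kinase (1.39), and with library totals 4 were higher and 2 lower. The 6 fell to 1 without M13, 2 without M24 and 3 without G28 or G42. Against normal control only Gpd1 was called (-1.08, adjusted p 0.0318 in edgeR).

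Transporters of bile secretion moved both ways. Of 12 tested, 9 were called in the DEN model, 4 higher and 5 lower (6 higher and 3 lower with library totals). Of those that rose, the largest values were of genes known from duct epithelium: Cftr, the chloride channel (7.004, adjusted p 9.07e-06 in edgeR), Sctr, the secretin receptor (5.08, 8.49e-05), and Ano1, a calcium-activated chloride channel (4.92, 0.00165). Slc10a1, the hepatocyte uptake carrier of bile acids, fell (-3.43, adjusted p 0.00137 in edgeR), and Abcb11, the canalicular bile salt pump, did so by -2.30 (0.00306). In PZH administration relative to DEN model rats 5 were called: Slc10a1 (2.74) and Abcb11 (1.99) higher, and Ano1 (-2.66), Sctr (-1.99) and Cftr (-1.39) lower, or 2 higher and 5 lower with library totals. The 5 fell to 1 without M13 and 3 without M24 or G42. Cftr (5.58) and Sctr (3.05) stayed above normal control.

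Genes of cell volume and osmolytes were mixed. Of 12 tested, 10 were called in the DEN model, 6 higher and 4 lower, or 8 higher and 2 lower with library totals. Slc6a6, the taurine carrier, rose (3.38, adjusted p 0.000126 in edgeR), as did Slc14a1, a urea channel (3.26, 0.0231), Trpv4, an osmosensitive cation channel (2.69, 0.00595), and Akr1b1, the aldose reductase that makes sorbitol (2.54, 0.000219). Slc14a1 was uneven among the DEN model rats, at 6.23 ± 7.40 CPM (SD), and its values in both comparisons rest on them. With PZH, Slc14a1 (-3.55), Slc6a6 (-1.45) and Akr1b1 (-1.31) were lower than in the DEN model, and Slc6a12, the betaine carrier (1.36), and Slc38a2, an amino acid carrier (1.12), were higher. With library totals 7 were lower and none higher, and without M13 none was called, without M24 1, and without any of G27, G28 or G42 2. Trpv4 (2.02), Slc6a6 (1.91) and Akr1b1 (1.20) stayed above normal control.

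Of 11 genes known to regulate aquaporin genes or to act on water and glycerol handling, 8 fell in the DEN model and none rose (6 lower and 1 higher with library totals). Avpr1a, the vasopressin receptor of hepatocytes, fell from 137 ± 22.6 to 1.58 ± 1.95 CPM (-6.46, adjusted p 0.000623 in edgeR), and the nuclear factors Rxra (-1.94, 0.00263) and Hnf4a (-1.64, 0.00242) fell as well. With PZH 5 were higher than in the DEN model, including Avpr1a (5.21, at 56.2 ± 13.1 CPM), Foxa1 (1.43), Ppara (1.23) and Hnf4a (1.11). The 5 became 8 with DESeq2, 7 without M17, 1 with library totals or without M24, 0 without M13 and 3 without G27 or G28. Avpr1a stayed below normal control (-1.28, adjusted p 0.0181 in edgeR).

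**Figure D5:**
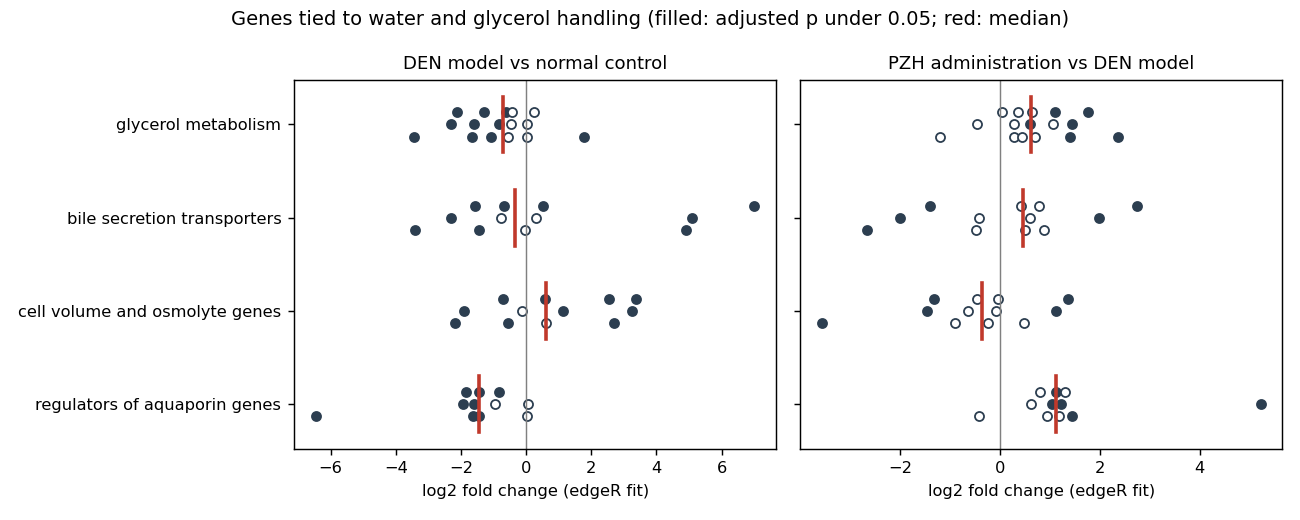
Log2 fold change (horizontal axis) of each tested gene of the glycerol, bile secretion, cell volume and regulator lists, filled where edgeR's adjusted p was under 0.05, with the list median as a red line. The glycerol and regulator medians were -0.72 and -1.45 between DEN model and normal control and 0.62 and 1.11 between PZH administration and DEN model, and with library totals the glycerol medians turned to 0.13 and -0.03.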

How the data were processed

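The authors deposited, for each gene and rat, the number of read counts and FPKM values. FPKM was the count divided by library total and 1 length per gene in 14028 of 14028 genes checked (within 0.1%). The submitters' processing notes name fastp, HISAT2 2.1.0, StringTie 1.3.3b and edgeR 3.30.3. The read counter, genome build, annotation and strand setting are not given in the sources used here. The deposited group means of FPKM and the authors' own fold changes and p-values were not used.

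Counts were compared in pairs of groups with edgeR 4.0.16 (filterByExpr, TMM, quasi-likelihood test), adjusted by Benjamini-Hochberg over all genes tested. SE is the log2 fold change divided by the square root of F. The script was tested on simulated counts. CPM used TMM factors over all 9 rats. Alternatives were DESeq2 1.42.0, library totals, no filter, at least 10 counts in every rat, a single fit of all groups, the thresholds of the study, and leaving out each rat. Members and lists were chosen with earlier results of these data known. Named were all 8 members, up to 4 called genes per list and comparison with the largest change, and the 3 genes most like each member. Slc38a2, Cftr with PZH, the neighbours of members, and Gk and Abcb11 in the DEN comparison were named after their values were seen. Promoters came from RefSeq's GRCr8 table. A few of the genes this rule names, and 1 motif, are not reported here.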

Additional observations from a re-analysis of the deposited data

How the results depend on the processing

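Of 235 values recomputed for the aquaporins, 202 kept their direction and their side of the threshold, 20 kept their direction but lost the threshold, 10 gained it and 3 changed sign. The signs that changed were of Aqp8 between DEN model and normal control with library totals (0.35), and of Aqp1 between PZH administration and DEN model with library totals (-0.35) and without G27 (-0.046), where leaving out a rat gave -0.046 to 0.67. Members called between DEN model and normal control numbered 7, and 3 under a minimum of 10 counts in each rat, which removes Aqp3, Aqp4, Aqp5 and Aqp7, 5 with library totals, 4 at the thresholds of the study, and 6 to 8 when a rat was left out. Between PZH administration and DEN model, 2 were called, 4 with library totals, 1 with at least 10 counts in every rat, 0 at the thresholds of the study, and 0 (without M13) to 5 (without M17) when a rat was left out. For PZH administration against normal control, 2 were called, 4 in a single fit of all 3 groups, where Aqp7 could be tested, 1 with at least 10 counts in every rat, 0 at the thresholds of the study, and 0 to 4 when a rat was left out, with 4 without G27 and 0 without N1, N12, N3 or G28. Where the cause of a change is not stated, the cause was not tested. With FPKM divided by the TMM factor, 2 members exchanged ranks in the DEN model (Aqp7 and Aqp11) and 2 in the PZH administration group (Aqp5 and Aqp7). The genes most like a member shared 10 of 24 names with a pseudocount of 0.1, and under the stricter filter 12 names were shared, with Aqp3, Aqp4, Aqp5 and Aqp7 removed. No paired analysis was possible because the rats of different groups share no numbers. With 3 rats a group an exact permutation test cannot give a p under 0.1, and levels below 3 counts a library are not resolved.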
